A study of Homo sapiens with 12 samples.

Results

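The genes described here encode the cytosolic factors that initiate, elongate and terminate translation, together with a few proteins that regulate or assemble them. They were taken by symbol from a list of 51 genes, drawn up with earlier results of these data known. Their estimated reads were summed over all transcripts of each gene. Of these, 48 had a transcript that could be matched to the gene annotation, out of 34318 genes so matched, and all 48 were tested in both comparisons. EIF3K, EIF5A and EEF1B2 were not analysed here.

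Messenger RNA from HEK293T cells, an established human embryonic kidney line, was sequenced in 12 libraries. In one experiment the cells were transfected with a control siRNA (siControl, n = 3) or with an siRNA against POLR3A (siPOLR3A, n = 3) and collected 2 days later. POLR3A encodes the largest subunit of RNA polymerase III, which makes transfer RNAs and 5S ribosomal RNA. In the other, cells were kept for 4 hours in 0.1% DMSO (n = 3) or in 25 µM ML60218, an inhibitor of RNA polymerase III (n = 3). All groups are wild-type HEK293T at passages within one stated range, with no engineered allele named. The 2 experiments differ in the agent, in the time and in their control, so their effects are set side by side and their difference was tested as such. Nothing in the labels says that the replicates came from separate cultures, so the p-values measure the spread between these libraries, which may be technical.

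Translation of most mRNAs begins when eIF4E binds the cap and eIF4G and the helicase eIF4A join it to form the eIF4F complex. The small ribosomal subunit, carrying eIF1, eIF1A, eIF3, eIF5 and the ternary complex of eIF2, GTP and initiator tRNA, then scans to the start codon. Afterwards eIF2B reloads eIF2 with GTP, eEF1A and eEF2 drive elongation, and eRF1 and eRF3 release the finished protein. Many mRNAs of this machinery start with a run of pyrimidines at the cap, the terminal oligopyrimidine (TOP) motif, through which the mTOR pathway is known to control their translation.

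Libraries held between 37008325 and 49479476 estimated reads. POLR3A was at 90.8 ± 3.56 CPM (read counts scaled to library size, mean ± SD of 3 libraries) in siControl and 17.6 ± 2.65 CPM in siPOLR3A, and at 113 ± 4.99 CPM in DMSO and 86.5 ± 2.2 CPM in ML60218. Of 5 epithelial marker genes 4 reached 1 TPM (transcript abundance per length, scaled to a fixed total) in some library, and KRT19 stayed at or under 0.167 TPM. The summed level of those markers was 34.2 to 36.3 TPM in siControl, 38.3 to 41.1 TPM in siPOLR3A, 39.2 to 40.8 TPM in DMSO and 42.8 to 45.3 TPM in ML60218. Of 5 leukocyte markers, PTPRC was at 0 in every library, and the summed level was 5.41 to 6.11 TPM in siControl, 7.88 to 8.14 TPM in siPOLR3A, 5.35 to 6.23 TPM in DMSO and 6.22 to 6.86 TPM in ML60218. The 5 fibroblast markers, with COL1A2 at most at 0.0277 TPM, summed to 30.2 to 32.3 TPM in siControl, 30.5 to 34.5 TPM in siPOLR3A, 22.7 to 23.6 TPM in DMSO and 23.2 to 24.5 TPM in ML60218. Single markers moved within these sums after siPOLR3A: DCN, LUM and COL3A1 were called lower (-1.30, -0.88 and -0.58 in log2 fold change) and COL1A1 higher (0.32), as were CD14 (2.01) of the leukocyte list and EPCAM (0.90), CDH1 (0.47) and KRT18 (0.14) of the epithelial list. With ML60218 KRT8 was called higher (0.56). The part of these marker levels in the results below was not tested.

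The levels of the factors differed widely. In siControl the elongation factors EEF1A1 (3431 ± 144 TPM, n = 3), EEF1G (1832 ± 64.8 TPM) and EEF2 (1325 ± 6.61 TPM) were the highest. The EEF1A1 level came to 96.7% from EEF1A1-206, a transcript annotated as a retained intron, and was 6510 ± 289 TPM when neighbouring transcripts in the table were counted in. The helicase EIF4A1 (852 ± 36.6 TPM) and EIF1, which guards the choice of start codon (664 ± 22.2 TPM), came next. Among the measured subunits of eIF3, the scaffold that links the small ribosomal subunit to eIF4G, mean levels in siControl ran from 473 TPM for EIF3M to 91.1 TPM for EIF3J, leaving out EIF3I and EIF3E. The matched transcripts of these carried 4.31% and 32.4% of the reads assigned to them with neighbouring transcripts, and with those included they stood at 218 ± 8.87 and 469 ± 33.8 TPM. The 5 eIF2B subunits lay close together, between 40.0 TPM for EIF2B4 and 50.1 TPM for EIF2B1. EEF2K, the kinase that inhibits eEF2, was the lowest, at 2.19 ± 0.686 TPM.

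After siPOLR3A, 27 of the 48 factors were lower and 10 were higher (edgeR quasi-likelihood test, adjusted p under 0.05 over all genes). The background is large: 56.6% of 15404 genes were called in that comparison, 29.2% lower and 27.4% higher. The median log2 fold change was -0.10 over the 48 factors and 0.01 over all genes tested. The median size of the change, without its sign, was 0.20 for the factors and 0.23 for all genes. The libraries of the 2 groups did not overlap in CPM for 36 of the 48 factors, against 63.4% of all genes. A called change of at least 2-fold was seen in 3 factors, CDC123, PDCD4 and EIF3J, against 3.82% of all genes. CDC123 and PDCD4 were listed with their changes after siPOLR3A known, so this count says nothing about the factors as a set.

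With ML60218, 17 of the 48 were lower and 5 were higher, where 39.0% of 15461 genes were called, 20.9% lower and 18.1% higher. The median log2 fold change was -0.07 for the factors and 0.01 for all genes, and the median size of the change was 0.09 for the factors and 0.17 for all genes. That split depended on how libraries were scaled: 11 lower and 10 higher with total counts, and 12 lower and 8 higher with upper quartile scaling. After removal of a trend with GC content and length it was 24 lower and 1 higher. Leaving out 1 of the DMSO libraries, replicate 2, reduced the number of factors called from 22 to 12. Libraries did not overlap for 28 of the 48 factors, against 51.9% of all genes. The largest called change, that of EIF4E2, was 1.44-fold, so 0 factors reached 2-fold, against 1.32% of all genes.

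**Figure D1:**
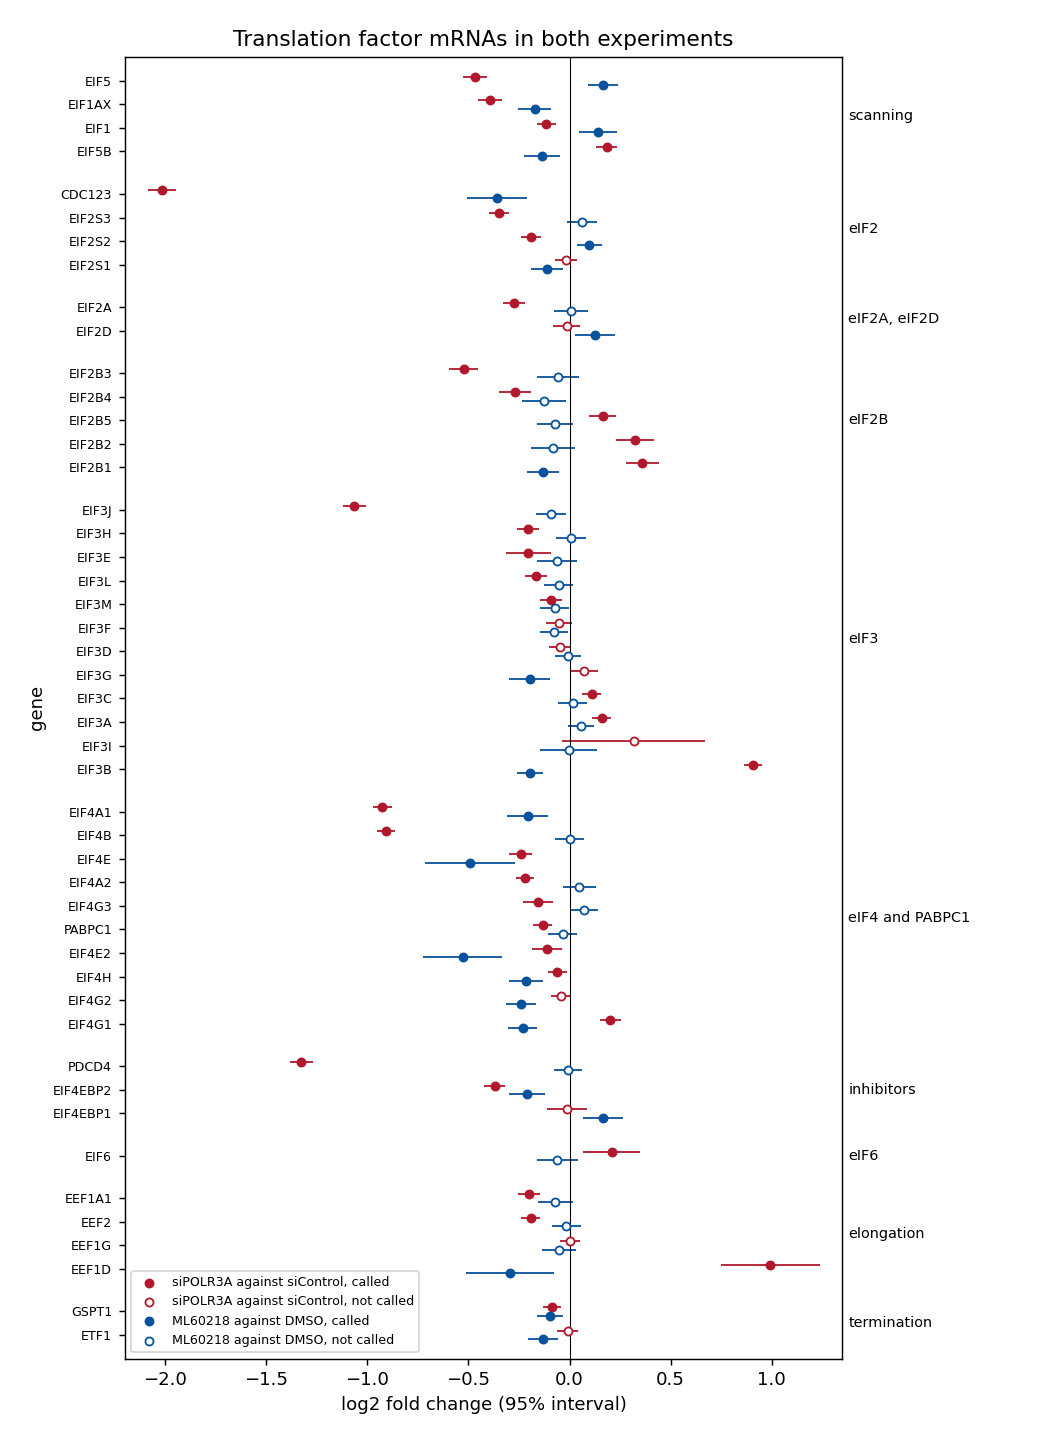
Log2 fold changes with 95% intervals (x axis) for 47 of the 48 tested factors (y axis, grouped by role), after siPOLR3A against siControl (red) and with ML60218 against DMSO (blue). Filled points passed an adjusted p under 0.05. EEF2K is left out because its interval is too wide for the axis. The red points reach from -2.02 for CDC123 to 0.99 for EEF1D, whereas the blue points stay between -0.53 and 0.17.

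The largest change was in CDC123, which assembles the eIF2 complex by joining its gamma subunit to the other subunits (chromosome 10, 12195965 to 12250589, plus strand, GRCh38). CDC123 was at 130, 131 and 136 CPM in the siControl libraries and at 32.9, 33.4 and 31.9 CPM in the siPOLR3A libraries. Each treated library lay far below every control. The fitted level of CDC123 in siPOLR3A was 24.7% of that in siControl, or -2.02 in log2 fold change, with an SE of 0.03 and an adjusted p of 2.41e-14. With ML60218 it fell as well, from 168, 170 and 168 CPM in DMSO to 138, 140 and 117 CPM, or by 0.36 in log2 terms (SE 0.06, adjusted p = 0.00367). The third ML60218 library was the lowest, and without it the value was -0.28 (adjusted p = 0.000154). The difference between the effects, siPOLR3A minus ML60218, was -1.65 for CDC123 (SE 0.08, adjusted p = 1.24e-09).

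eIF2 itself changed less than its assembly factor. EIF2S3, the gamma subunit that holds the initiator tRNA, was at 1005, 1025 and 1021 CPM in siControl and 782, 817 and 794 CPM in siPOLR3A, so the groups did not overlap. Its log2 fold change was -0.35 (SE 0.02, adjusted p = 1.34e-08), and the beta subunit EIF2S2 fell by 0.19 on the log2 scale (SE 0.02). EIF2S1, the alpha subunit whose phosphorylation slows initiation under stress, was at -0.02 (95% interval -0.07 to 0.04) and was not called. The gamma subunit stood at 237 ± 17.0 TPM for each 100 TPM of the alpha subunit in siControl and at 186 ± 7.91 in siPOLR3A. Most of that EIF2S1 level came from EIF2S1-205 and EIF2S1-203, annotated as retained introns, with 60.95% and 16.3% of it in siControl. The coding transcript EIF2S1-201 made up 17.48%, so the ratio is not one of coding mRNAs. With ML60218 the subunits moved apart in another way: EIF2S1 fell by 0.11, EIF2S2 rose by 0.10, and EIF2S3 was at 0.06 without a call. The calls of EIF2S1 and EIF2S2 were lost under 6 and 5 of 16 alternatives, among them leaving out DMSO replicate 1 or 2, and total counts called EIF2S3 higher. Of the proteins that can deliver initiator tRNA by another route, EIF2A fell by 0.28 after siPOLR3A (SE 0.03), and EIF2D was at -0.01 there and rose by 0.13 with ML60218 (SE 0.04, adjusted p = 0.0481), a call lost under 9 of 16 alternatives.

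All 5 subunits of eIF2B were called after siPOLR3A, where 56.6% of all genes were, and in both directions. Its catalytic arm holds EIF2B3 (gamma) and EIF2B5 (epsilon), and these parted. EIF2B3 was at 57.5, 59.7 and 56.6 CPM in siControl and at 40.2, 40.5 and 40.1 CPM in siPOLR3A, a fall of 0.52 in log2 terms (SE 0.03, adjusted p = 1.21e-08). EIF2B5 rose by 0.17 (SE 0.03, adjusted p = 0.000416). In TPM, EIF2B3 stood at 106 ± 7.16 for each 100 of EIF2B5 in siControl and at 65.5 ± 1.42 in siPOLR3A, and at 108 ± 7.35 in DMSO and 111 ± 7.38 in ML60218. Of the regulatory subunits, EIF2B4 (delta) fell by 0.27 (SE 0.04). EIF2B1 (alpha) went from 74.4, 82.6 and 80.6 CPM to 105, 101 and 100 CPM, a rise of 0.36 (SE 0.04, adjusted p = 2.17e-06). EIF2B2 (beta) rose from 35.7, 36.1 and 38.9 CPM to 47.2, 44.1 and 47.4 CPM, by 0.32 in log2 terms (SE 0.04, adjusted p = 1.87e-05). The libraries of each of these subunits did not overlap between siControl and siPOLR3A, which held for 63.4% of all genes. Most of the EIF2B2 level came from EIF2B2-205 and EIF2B2-207, which are annotated as retained introns and made up 42.2% and 35.7% of it in siControl. With ML60218 only EIF2B1 was called (-0.13, adjusted p = 0.0144), a call lost under 4 of 16 alternatives, among them total counts and leaving out DMSO replicate 2, and the 5 values lay between -0.13 and -0.06.

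Within eIF3, EIF3B and EIF3J moved in opposite directions after siPOLR3A while the other measured subunits stayed within 0.32 on the log2 scale. EIF3B, a core scaffold subunit (chromosome 7, 2354086 to 2380745, plus strand), was at 252, 253 and 254 CPM in siControl and at 479, 477 and 468 CPM in siPOLR3A. No control library came near a treated one. EIF3B rose by 0.91 in log2 terms (SE 0.02, adjusted p = 4.91e-13). With ML60218 it fell from 455, 458 and 460 CPM to 400, 405 and 393 CPM, or by 0.20 (SE 0.03, adjusted p = 0.000838), and the difference between the effects was 1.11 (SE 0.03, adjusted p = 1.67e-12). The siControl group was itself low in EIF3B beside the other control, at 124 ± 1.45 TPM against 204 ± 4.75 TPM in DMSO, and siPOLR3A stood at 221 ± 2.62 TPM. For each 100 TPM of EIF3A, the largest subunit, EIF3B stood at 87.5 ± 3.54 in siControl, 136 ± 4.01 in siPOLR3A, 131 ± 3.62 in DMSO and 106 ± 3.42 in ML60218. Its leading transcripts rose together after siPOLR3A, EIF3B-201 from 46.2 ± 3.18 to 89.7 ± 2.65 TPM and EIF3B-202 from 36.2 ± 2.70 to 72.4 ± 4.66 TPM.

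EIF3J, a loosely bound subunit that acts at the mRNA channel of the ribosome (chromosome 15, 44537057 to 44563029, plus strand), was at 144, 146 and 145 CPM in siControl and at 68.6, 68.5 and 70.5 CPM in siPOLR3A. The ranges are far apart, and EIF3J fell by 1.07 in log2 terms (SE 0.03, adjusted p = 8.11e-13). With ML60218 the value was -0.09 (95% interval -0.16 to -0.02), just outside the threshold (adjusted p = 0.05001), and the difference between the effects was -0.97 (SE 0.04). Of the remaining 10 measured subunits, EIF3A rose by 0.16 and EIF3C by 0.11. EIF3H, EIF3E, EIF3L and EIF3M fell by 0.21, 0.20, 0.17 and 0.09, and the call of EIF3M was lost under 3 of 16 alternatives. EIF3D, EIF3F, EIF3G and EIF3I were not called after siPOLR3A. EIF3G (0.07, adjusted p = 0.0686) was called higher under some alternatives, among them total counts, upper quartile scaling and neighbouring transcripts included. EIF3I was called in DESeq2, and EIF3D without siPOLR3A replicate 1. EIF3G, which binds RNA, was the other subunit called with ML60218, at -0.20 (SE 0.05, adjusted p = 0.00755).

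Where many reads of a subunit lay in transcripts that could not be matched directly, counting the neighbouring transcripts gave a fuller value. EIF3I, matched for 4.31% of those reads, then rose by 0.10 after siPOLR3A (SE 0.03, adjusted p = 0.00306) and fell by 0.11 with ML60218 (adjusted p = 0.0220). EIF3E, matched for 32.4%, fell by 0.25 after siPOLR3A (SE 0.03, adjusted p = 8.35e-06) and stood at -0.06 with ML60218 (adjusted p = 0.129). EIF3F, matched for 82.0%, fell by 0.10 after siPOLR3A (SE 0.03, adjusted p = 0.00526). EIF3C shares nearly its whole sequence with EIF3CL, a copy listed at 2.23 to 4.54 TPM, so the division of reads between them is uncertain.

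In the cap-binding and helicase group, in which PABPC1 was counted, 8 of 10 genes were lower after siPOLR3A and EIF4G1 was higher. Over all genes 29.2% were lower and 27.4% higher. Among the 8, EIF4E2 and EIF4H lost their calls with total counts, upper quartile scaling and removal of the GC and length trend. EIF4A1, the main eIF4A helicase (chromosome 17, 7572706 to 7579005, plus strand), was at 1249, 1262 and 1293 CPM in siControl and at 666, 673 and 663 CPM in siPOLR3A. No libraries overlapped. EIF4A1 fell by 0.93 in log2 terms (SE 0.02, adjusted p = 4.91e-13), and by 0.74 with an offset for the length of the transcripts in use. EIF4A2, its close relative, fell less, by 0.22 (SE 0.02, adjusted p = 6.89e-07), so that EIF4A1 made up 64.5% ± 0.624 of their summed TPM in siControl and 56.4% ± 0.712 in siPOLR3A. The EIF4A1 gene overlaps a read-through gene, SENP3-EIF4A1, which was at 3.62 ± 0.754 TPM in siControl and 3.29 ± 0.808 TPM in siPOLR3A.

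EIF4B, which stimulates the helicase (chromosome 12, 53006158 to 53042209, plus strand), was at 1060, 1049 and 1057 CPM in siControl and at 561, 569 and 557 CPM in siPOLR3A. Its control libraries all lay well above the treated ones. EIF4B fell by 0.91 (SE 0.02, adjusted p = 3.88e-13). In ML60218 it was at 979, 987 and 943 CPM beside 977, 960 and 971 CPM in DMSO, and the groups overlapped. The value there was 0.00 (95% interval -0.07 to 0.07), and the difference between the effects was -0.90 (SE 0.04, adjusted p = 2.55e-11). EIF4H, a smaller relative of EIF4B, fell by 0.06 after siPOLR3A (SE 0.02), a call lost under 9 of 16 alternatives, and by 0.21 with ML60218 (SE 0.04, adjusted p = 0.00203).

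PDCD4 binds eIF4A and blocks its helicase activity (chromosome 10, 110871795 to 110900006, plus strand). This inhibitor was at 253, 265 and 257 CPM in siControl and at 101, 104 and 104 CPM in siPOLR3A, with no overlap. The fall of 1.33 in log2 terms (SE 0.03, adjusted p = 1.30e-13) was the next largest among the factors after that of CDC123. ML60218 left it at 185, 190 and 184 CPM beside 183, 189 and 189 CPM in DMSO, and between these overlapping groups the value was -0.01 (95% interval -0.08 to 0.06). The difference between the effects was -1.31 (SE 0.04, adjusted p = 1.67e-12). Set against its target, PDCD4 stood at 12.1 ± 0.937 TPM for each 100 TPM of EIF4A1 plus EIF4A2 in siControl and at 6.60 ± 0.414 in siPOLR3A, and at 9.56 ± 0.518 in DMSO and 10.4 ± 0.354 in ML60218.

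**Figure D2:**
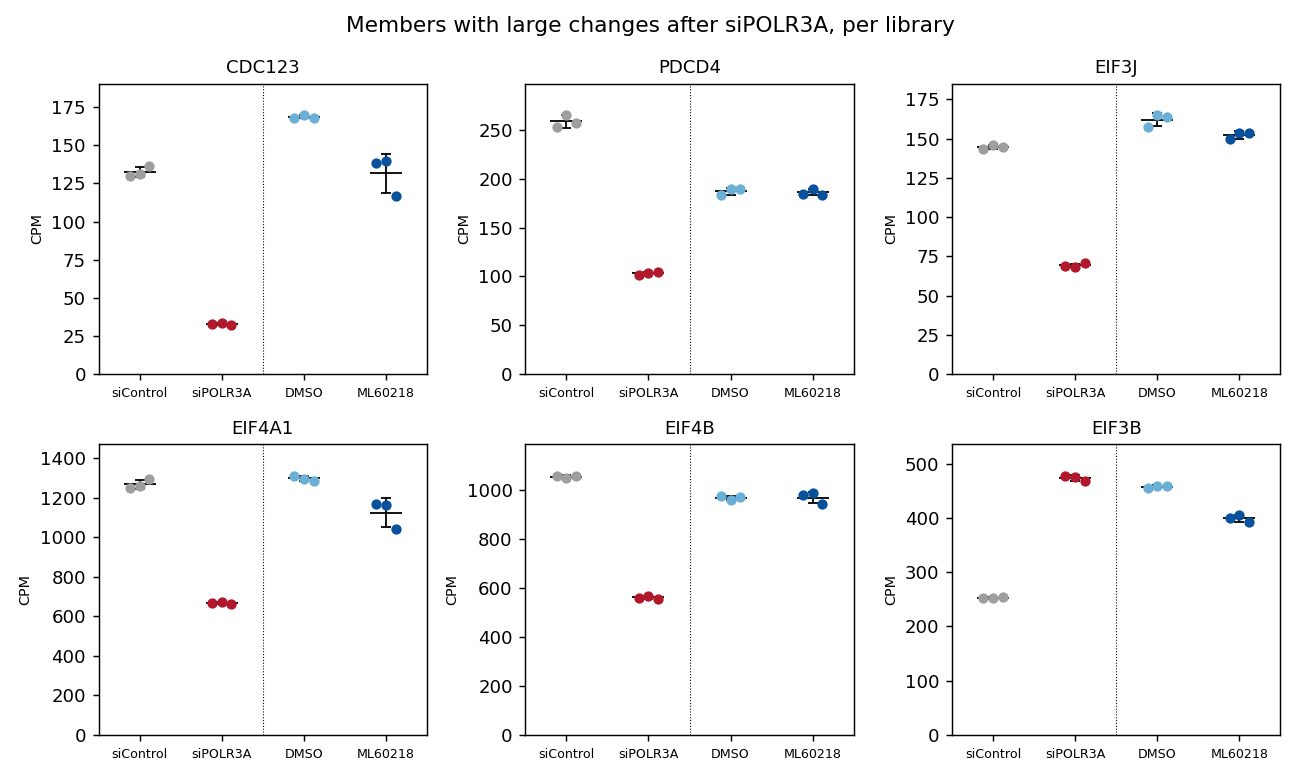
CPM (y axis, from 0) of 6 factors in each library of the 4 groups (x axis), with bars for the mean and SD of 3 libraries. The 2 experiments, parted by the dotted line, were scaled separately. The siPOLR3A libraries of CDC123, PDCD4, EIF3J, EIF4A1 and EIF4B lie below every siControl library, and those of EIF3B lie above, near 470 against near 253 CPM.

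The 6-base run GAGGGA was counted in the 3′ untranslated regions because an earlier look at these libraries had singled it out, so the counts below describe the transcripts and test nothing. The sequence of the siRNA was not given in the sources used here. The search read the transcript's own strand of GENCODE transcripts on GRCh38. It took each gene's most abundant protein-coding transcript and left the gene out where that transcript had no usable region. Such a transcript can be a small part of the gene's level: in siControl, EIF2B2-201 made up 8.18% and EEF1A1-211 0.328%. The run was present in all 5 factors with the largest falls after siPOLR3A. The copies are shown in capitals with their flanks:
CDC123 (chr10:12250486-12250509, plus strand): aaaaaaacgGAGGGActttgctac
PDCD4 (chr10:110898280-110898303, plus strand): gggggcaagGAGGGAcagaaaagt
EIF3J (chr15:44561303-44561326, plus strand): tgtgcaaatGAGGGAacttggatc
EIF3J (chr15:44561839-44561862, plus strand): caggtggggGAGGGAaacttattt
EIF4A1 (chr17:7578546-7578569, plus strand): aggagggggGAGGGAagggagcca
EIF4A1 (chr17:7578832-7578855, plus strand): ccaaatctgGAGGGAgaaccccta
EIF4B (chr12:53040575-53040598, plus strand): gcagtagggGAGGGAggtagaagg
EIF4B (chr12:53040769-53040792, plus strand): gccagcctaGAGGGAattcctttt

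Outside the run, no position holds the same base in all of these windows. Among 3′ untranslated regions of like length, 9.8% hold the run for CDC123, 19.1% for EIF4A1, and between 42.0% and 45.6% for PDCD4, EIF3J and EIF4B. The run was present in 15 of the 42 factors scanned (35.7%), against 34.1% of 12379 genes. Among factors called lower it was in 11 of 23, against 42.4% of all genes called lower. It was also in 3 of 10 factors called higher, EIF2B2, EIF2B5 and EIF3A, against 30.0% of all genes called higher.

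Transcripts of one gene did not always move alike, and the levels below are descriptions with no test. EIF4A1-201, the leading transcript, with 2 copies of the run, went from 725 ± 21.5 TPM in siControl to 346 ± 2.21 TPM in siPOLR3A. EIF4A1-218, with 3 copies, was at 19.9 ± 1.72 and 22.6 ± 1.66 TPM. The retained-intron transcript EIF4A1-236 went from 16.6 ± 0.673 to 23.4 ± 0.957 TPM, and the share of EIF4A1-201 in the gene's level went from 85.2% to 66.8%. EIF4B-201, with 2 copies in a region of 1986 bases, went from 272 ± 11.6 to 139 ± 0.551 TPM. EIF4B-203, whose region of 57 bases holds 0 copies, was at 29.6 ± 0.903 TPM in siControl and 26.0 ± 2.31 TPM in siPOLR3A. EIF5-205, with 2 copies, went from 49.3 ± 3.28 to 22.6 ± 1.90 TPM, beside EIF5-202, with 0 copies, at 41.8 ± 3.94 and 40.9 ± 1.05 TPM. Other transcripts did not follow that order: EIF5-201, with 3 copies, was at 7.46 ± 0.891 and 7.99 ± 0.827 TPM. EIF4H-201, also with 3, went from 43.6 ± 2.51 to 69.5 ± 2.26 TPM. The leading transcript of that gene, EIF4H-202, holds 3 copies too and went from 221 ± 8.95 to 187 ± 0.490 TPM.

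**Figure D3:**
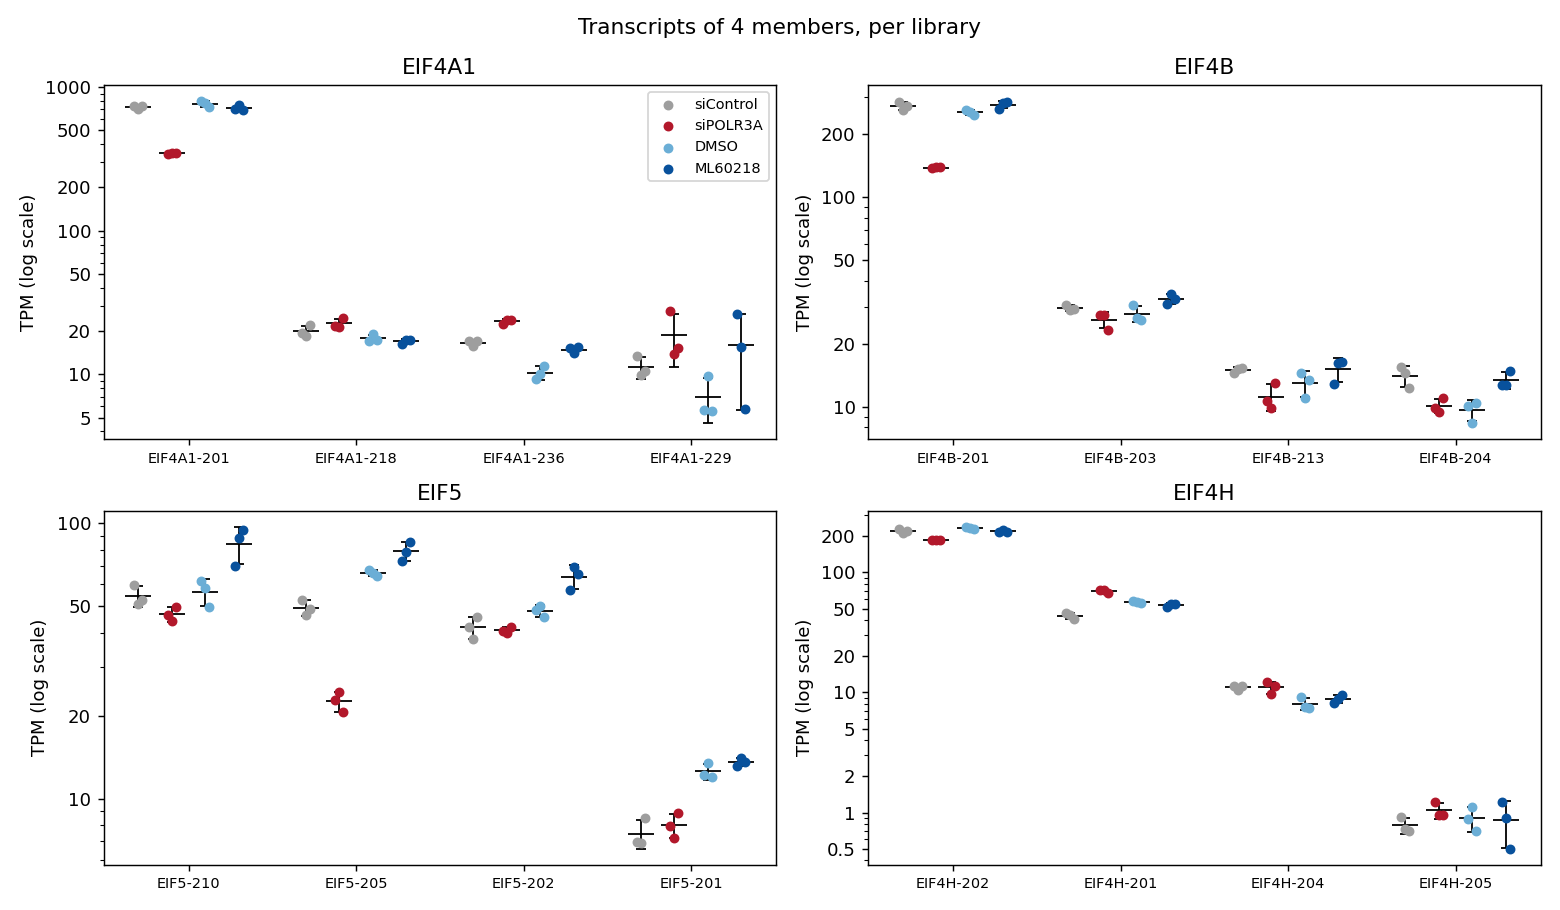
TPM (y axis, log scale) of the 4 most abundant matched transcripts (x axis, in order of their mean level) of EIF4A1, EIF4B, EIF5 and EIF4H in each library, with bars for the mean and SD of 3 libraries and colours for the groups. The genes were chosen after their values were seen. EIF4A1-201, EIF4B-201, EIF5-205 and EIF4H-202 lie lower in siPOLR3A than in siControl, at 346 against 725 TPM for EIF4A1-201. EIF4A1-218, EIF5-201 and EIF4H-201, which also hold the run, do not.

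With ML60218, 6 of the 10 cap-binding and helicase genes were lower and 0 were higher in edgeR, against 20.9% and 18.1% of all genes. The count of higher genes was 1 at an unadjusted p under 0.05, EIF4G3, and 0 in DESeq2. With total counts EIF4G3 and EIF4A2 were called higher, and with upper quartile scaling EIF4G3 was. EIF4E, the cap-binding protein itself (chromosome 4, 98871684 to 98930637, minus strand), was at 213, 211 and 210 CPM in DMSO and at 166, 157 and 129 CPM in ML60218. Every treated library was below every control, and the treated libraries were spread widely. EIF4E fell by 0.49 in log2 terms (SE 0.09, adjusted p = 0.00823), and by 0.39 without the third ML60218 library. The same mRNA fell after siPOLR3A, by 0.24 (SE 0.03, adjusted p = 3.23e-06), and the difference between the effects, 0.26 (95% interval 0.03 to 0.49), was not called (adjusted p = 0.0599). That difference was called under several alternatives, among them total counts, upper quartile scaling, DESeq2 and leaving out ML60218 replicate 1 or 3.

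EIF4E2, a cap-binding relative that represses rather than promotes initiation (chromosome 2, 232550052 to 232583644, plus strand), went from 103, 105 and 104 CPM in DMSO to 80.8, 73.3 and 62.8 CPM in ML60218. The third library was again the lowest of a group that lay wholly below DMSO. EIF4E2 fell by 0.53 (SE 0.08, adjusted p = 0.00289), the largest fall with ML60218 among the factors, and by 0.44 without that library. After siPOLR3A the value was -0.11 (SE 0.04), a call lost under 7 of 16 alternatives, and the difference between the effects was 0.42 (SE 0.10, adjusted p = 0.00333).

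Of the eIF4G scaffolds, EIF4G1 and EIF4G2 fell with ML60218. EIF4G1, the main eIF4G, was at 1280, 1291 and 1281 CPM in DMSO and 1108, 1110 and 1060 CPM in ML60218, a fall of 0.23 (SE 0.03, adjusted p = 0.000644) with no overlap. After siPOLR3A it rose from 1075, 1132 and 1095 to 1244, 1282 and 1272 CPM, by 0.20 (SE 0.02), and the difference between the effects was 0.44 (SE 0.04, adjusted p = 1.49e-07). EIF4G2, a relative that lacks the eIF4E-binding part, fell from 1424, 1462 and 1439 CPM to 1212, 1259 and 1189 CPM with ML60218, by 0.24 (SE 0.03, adjusted p = 0.000661). It was not called after siPOLR3A (-0.04, 95% interval -0.09 to 0.01). EIF4G3 was at 0.07 with ML60218 without a call (0.01 with neighbouring transcripts included), and fell by 0.16 after siPOLR3A. EIF4A1 fell by 0.21 with ML60218 (SE 0.05, adjusted p = 0.00625). PABPC1, which binds the poly(A) tail and eIF4G, fell by 0.13 after siPOLR3A and was at -0.03 with ML60218 (95% interval -0.11 to 0.04).

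The inhibitors of eIF4E did not move as one. EIF4EBP1 was at 40.1, 37.1 and 38.8 CPM in DMSO and at 43.0, 44.4 and 42.8 CPM in ML60218, a small rise of 0.17 (SE 0.05, adjusted p = 0.0163) with no overlap, a call lost under 3 of 16 alternatives. EIF4EBP2 fell with ML60218 by 0.21 (SE 0.04) and after siPOLR3A by 0.37 (SE 0.02, adjusted p = 8.69e-09). Together they stood at 94.0 ± 2.24 TPM for each 100 TPM of EIF4E in DMSO and at 135 ± 15.6 in ML60218, beside 96.2 ± 0.670 in siControl and 101 ± 4.55 in siPOLR3A.

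**Figure D4:**
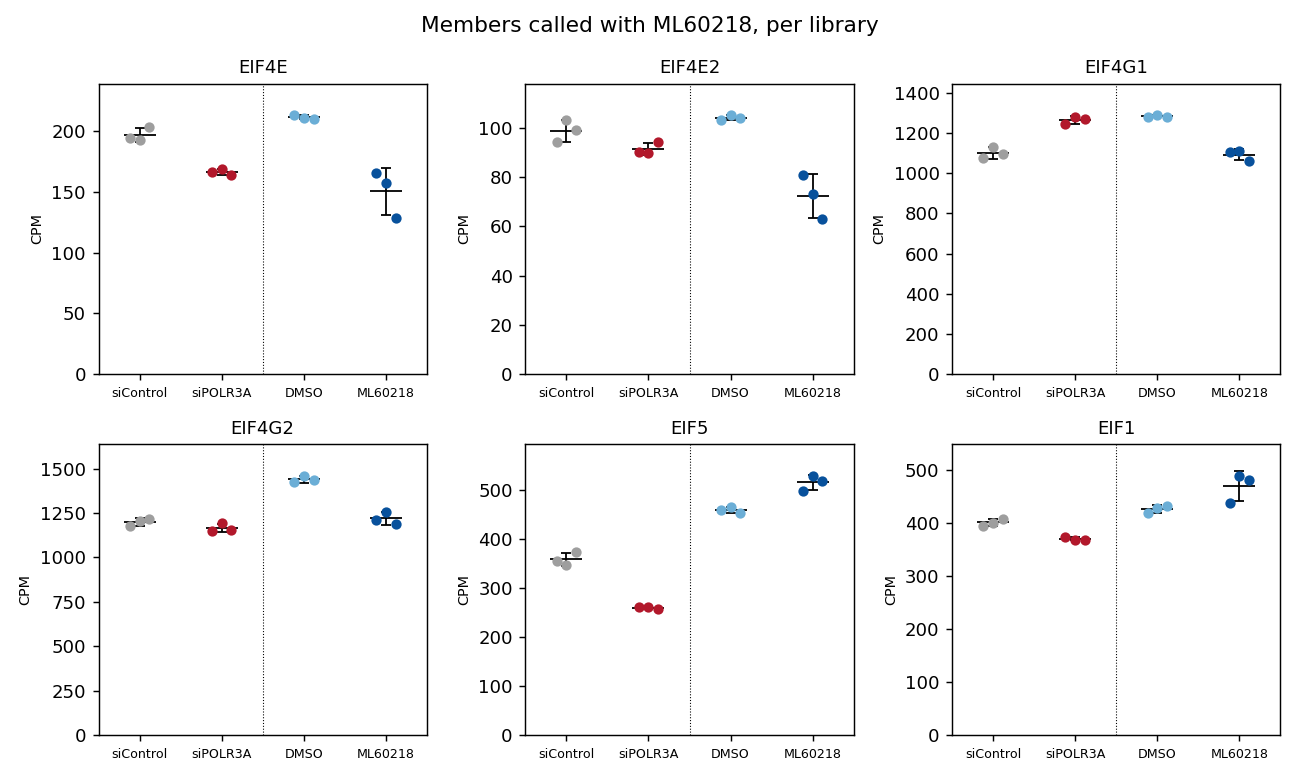
CPM (y axis, from 0) of 6 factors called with ML60218, in each library of the 4 groups (x axis), with bars for the mean and SD of 3 libraries. The 2 experiments, parted by the dotted line, were scaled separately. ML60218 libraries lie below DMSO for EIF4E, EIF4E2, EIF4G1 and EIF4G2, and above it for EIF5 and EIF1. EIF4G1 and EIF5 lie on opposite sides of their controls in the 2 experiments.

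Among the scanning and start codon factors, EIF5 and EIF1 fell after siPOLR3A and rose with ML60218. EIF5, which prompts eIF2 to hydrolyse GTP, was at 356, 347 and 373 CPM in siControl and 260, 261 and 257 CPM in siPOLR3A. It was at 459, 465 and 453 CPM in DMSO and 498, 529 and 518 CPM in ML60218, so neither pair of groups overlapped. The log2 fold changes of EIF5 were -0.47 (SE 0.03, adjusted p = 3.97e-09) and 0.17 (SE 0.03, adjusted p = 0.00351), and their difference was -0.63 (SE 0.04). After removal of the trend with GC content and length the rise with ML60218 was 0.09 and was not called (adjusted p = 0.0649). EIF1 fell by 0.12 after siPOLR3A and rose with ML60218 from 420, 428 and 433 CPM to 439, 490 and 482 CPM, by 0.14 (SE 0.04, adjusted p = 0.0255), a call lost under 7 of 16 alternatives. EIF1AX, one of the genes for eIF1A, fell in both experiments, by 0.39 after siPOLR3A (SE 0.03) and by 0.17 with ML60218 (SE 0.04). EIF5B, which joins the ribosomal subunits, rose by 0.18 after siPOLR3A (SE 0.02) and fell by 0.13 with ML60218 (SE 0.04, adjusted p = 0.0234), a call lost under 5 of 16 alternatives, among them total counts and leaving out DMSO replicate 2 or 3 or ML60218 replicate 2.

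In elongation the abundant factors shifted little. EEF2, the translocase, was at 3004, 2936 and 2988 CPM in siControl and 2623, 2623 and 2571 CPM in siPOLR3A, a fall of 0.19 (SE 0.02, adjusted p = 4.87e-06) with no overlap. EEF1A1, which brings aminoacyl-tRNA to the ribosome, fell by 0.20 (SE 0.03) on the matched reads, which were 52.3% of those assigned to it with neighbouring transcripts, and by 0.19 (SE 0.03, adjusted p = 2.24e-06) with these included. EEF1G was at 0.00 (95% interval -0.04 to 0.05). With ML60218, 0 of these 3 were called in edgeR, 0 passed an unadjusted p under 0.05 and 0 were called in DESeq2. Over all genes, 39.0% were called with ML60218 in edgeR. After removal of the trend with GC content and length, EEF1A1 was called lower with ML60218. EEF1D, a subunit of the exchange factor for eEF1A, went from 9.28, 12.9 and 11.3 CPM to 21.8, 23.2 and 21.7 CPM after siPOLR3A, a rise of 0.99 (SE 0.11, adjusted p = 5.75e-05). This rests on 20 of 56 annotated transcripts and a low level, so it describes those transcripts and not the whole gene. With ML60218 the value for EEF1D was -0.29 (SE 0.10, adjusted p = 0.0375), a call lost under 7 of 16 alternatives. EEF2K, at 2.84 to 9.54 CPM in siControl and 4.69 to 8.31 CPM in siPOLR3A, overlapped between the groups and varied widely among libraries of a group, with a log2 fold change of 0.25 and a 95% interval from -1.24 to 1.74, and was not called.

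EIF6, which keeps the large ribosomal subunit from joining early, rose from 36.8, 34.6 and 41.5 CPM to 44.8, 42.1 and 43.6 CPM after siPOLR3A. The groups did not overlap, but the margin was narrow: EIF6 rose by 0.21 (SE 0.06, adjusted p = 0.0170), and the call was lost under 4 of 16 alternatives. Of the release factors, GSPT1 (eRF3) fell by 0.09 after siPOLR3A (SE 0.02) and by 0.10 with ML60218 (SE 0.03), calls lost under 4 and 5 of 16 alternatives. With ML60218 these include leaving out any one DMSO library. ETF1 (eRF1) was at -0.01 after siPOLR3A and fell by 0.13 with ML60218 (SE 0.03, adjusted p = 0.0126), a call lost under 3 of 16 alternatives, among them total counts and leaving out DMSO replicate 2.

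Over all 48 factors, the difference between the effects was called for 36, 15 higher and 21 lower, where 50.9% of 15780 genes were called, 24.5% higher and 26.4% lower. It reached 2-fold for 4 factors, CDC123, PDCD4, EIF3B and EEF1D, against 6.24% of genes. CDC123, PDCD4 and EIF3B were listed with their changes after siPOLR3A known, and EEF1D rests on 20 of 56 annotated transcripts. The count therefore says nothing about the factors as a set. The most positive called differences were those of EEF1D (1.29, for its matched transcripts only and at a low level), EIF3B (1.11) and EIF2B1 (0.50). The most negative were those of CDC123 (-1.65), PDCD4 (-1.31) and EIF3J (-0.97). Removing the trend with GC content and length turned the split to 17 higher and 14 lower. In all, 16 factors were called in both experiments, against 26.2% of 15165 genes tested in both. Called lower in both were 8 of these, CDC123, EIF1AX, EIF4A1, EIF4E, EIF4E2, EIF4EBP2, EIF4H and GSPT1, against 7.52% of those genes. The calls of EIF4H, EIF4E2 and GSPT1 after siPOLR3A, and those of EEF1D, EIF2B1, EIF5B, EIF1, EIF2S2, EIF5 and GSPT1 with ML60218, were each lost under some alternative. For 6 of the 8 the difference between the effects was itself called. Higher after siPOLR3A and lower with ML60218 were EEF1D, EIF2B1, EIF3B, EIF4G1 and EIF5B, and the reverse held for EIF1, EIF2S2 and EIF5, against 7.49% and 6.43% of genes. Called higher in both were 0 factors in edgeR, 0 at an unadjusted p under 0.05 in both and 0 in DESeq2, against 4.75% of genes.

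The annotated transcription starts were read to see which factors begin with a TOP-like run. RefSeq start sites (GRCh38.p14) were present for 42 of the 51 genes, and a start was counted when its first base was C and the next 4 were C or T, read on the gene's strand. A gene with several entries was counted if any of them had it. Of 35116 start entries, 4.07% had such a start. Of the tested factors, 10 had it: EIF2S3, EIF2A, EIF2D, EIF3D, EIF3F, EIF3M, EIF4A2, EIF4B, EEF1A1 and EEF2. EIF4G2 has 2 entries without such a start, and the entry at the lower coordinates is shown. The windows below show the first 5 transcribed bases in capitals after 15 upstream bases. They are for factors with such a start and for genes of the cap-binding and helicase group without one:
EEF1A1 (chr6:73521018-73521047, minus strand): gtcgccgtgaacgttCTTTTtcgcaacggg
EEF2 (chr19:3985449-3985478, minus strand): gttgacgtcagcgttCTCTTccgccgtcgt
EIF4B (chr12:53006441-53006470, plus strand): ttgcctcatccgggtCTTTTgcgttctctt
EIF3F (chr11:7987322-7987351, plus strand): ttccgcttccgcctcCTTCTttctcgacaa
EIF4E (chr4:98929119-98929148, minus strand): ccttctggagcggttGTGCGatcagatcga
EIF4G2 (chr11:10807982-10808011, minus strand): gaggttgtcggaagcACTTCcctaacttgc

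Of the 10 factors with such a start, 7 were lower after siPOLR3A and 0 were higher (0 also at an unadjusted p under 0.05 and in DESeq2), with a median log2 fold change of -0.20. Over all genes 29.2% were lower and 27.4% higher. Of the 29 tested factors with another start, 15 were lower and 8 higher, with a median of -0.06. With ML60218, 0 of the 10 were lower in edgeR and in DESeq2, 2 were lower at an unadjusted p under 0.05 (EIF3F and EIF3M), and EIF2D was higher, with a median of 0.00. After removal of the trend with GC content and length, EIF3F, EIF3M and EEF1A1 were called lower, and so were EIF3F and EIF3M with all 12 libraries in 1 fit. Total counts called EIF2S3 and EIF4A2 higher, and upper quartile scaling EIF2S3. Of the 29, 15 were lower and 2 higher with ML60218, with a median of -0.11, against 20.9% lower and 18.1% higher over all genes. These are counts over genes chosen with results known, and the groups were not tested against each other. The remaining 9 tested factors had no entry.

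Other genes of the pathway were read from lists of related factors. Over all genes tested, 27.4% were called higher and 29.2% lower after siPOLR3A, and 18.1% and 20.9% with ML60218. Of 13 tested cytosolic factors outside the main list, 5 were higher and 5 lower after siPOLR3A and 8 were lower and 0 higher with ML60218 (0 also at an unadjusted p under 0.05 and in DESeq2). HBS1L, which rescues stalled ribosomes, fell by 0.64 after siPOLR3A (SE 0.02). EEF1A2, the second eEF1A gene, rose by 0.48 (SE 0.03), as did GSPT2, a second eRF3 gene, by 0.60 (SE 0.06). With ML60218, EIF1B, the near copy of EIF1, fell by 0.39 (SE 0.04), EIF5A2 by 0.49 (SE 0.06), and the exon junction helicase EIF4A3 by 0.33 (SE 0.04).

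Of 21 regulators of initiation, 6 were higher and 7 lower after siPOLR3A, close to the 27.4% and 29.2% of all genes. With ML60218 2 were higher and 7 lower, against 18.1% and 20.9%. RPS6KB1, the kinase of ribosomal protein S6 and of eIF4B, fell by 0.94 after siPOLR3A (SE 0.03, adjusted p = 2.13e-12). BZW1, an eIF5 mimic, fell by 0.62 (SE 0.02) there and by 0.34 (SE 0.03) with ML60218. PPP1R15A, the stress-induced subunit of an eIF2 alpha phosphatase, rose by 1.11 with ML60218 (SE 0.18, adjusted p = 0.00763).

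Among 12 tested enzymes that modify the factors, 9 were lower and 0 higher after siPOLR3A (0 also at an unadjusted p under 0.05 and in DESeq2), with a median log2 fold change of -0.18, against 29.2% lower and 27.4% higher over all genes. DOHH, which completes the hypusine of eIF5A, fell by 1.89 (SE 0.14, adjusted p = 4.53e-08), and METTL13, a methyltransferase of eEF1A, fell by 0.41 (SE 0.03). With ML60218 5 were higher and 3 lower. Of 9 mitochondrial translation factors, 5 were higher and 4 lower after siPOLR3A, where 56.6% of all genes were called, GFM2 falling by 0.58 (SE 0.03) and MTRF1L rising by 0.35 (SE 0.03), and 2 were higher and 1 lower with ML60218.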

How the data were processed

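The authors deposited 1 table with an estimated count (expected count) and a TPM value per Ensembl transcript and library, plus transcript lengths. The column names match salmon output, per the file headers. The submitters' processing notes name bcl2fastq 2.20, Trim Galore and DESeq2. The aligner's version and settings are not given in the sources used here. Transcripts were assigned to genes by identifier in GENCODE 29 (81.6% matched; unmatched ones held 8.37% to 8.97% of reads and were left out), and counts were summed and rounded. Genes were filtered with filterByExpr and fitted with edgeR 4.0.16 (TMM, quasi-likelihood F test, Benjamini-Hochberg), 6 libraries per comparison and 12 for the difference. SE is the fold change divided by the square root of F. CPM use TMM factors of each comparison. The code was checked on simulated data. Named were CDC123, PDCD4, EIF3B, the 5 largest called rises and falls per comparison, the 3 most positive and negative differences, and further factors by role. Members and lists were chosen with earlier results of these data known, among them the siPOLR3A changes of EIF3B, PDCD4 and CDC123. Alternatives covered scaling, filter, DESeq2 1.42.0, replicate block, transcript assignment, transcript length, GC and length, and each library left out. Replicates of a group differed by more than sampling noise.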

Additional observations from a re-analysis of the deposited data

How the results depend on the processing

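Calls among the 48 factors numbered 34 to 40 after siPOLR3A, 17 to 26 with ML60218 and 31 to 40 for the difference under the alternatives that kept all libraries, beside 37, 22 and 36. With 1 library left out the ranges were 35 to 38, 12 to 23 and 32 to 37, and over all genes 7998 to 8361, 4159 to 6501 and 7504 to 8266. The 12 came without DMSO replicate 2. In neither experiment did a called factor change sign. After siPOLR3A, EIF4H, EIF4E2, GSPT1, EIF3M and EIF6 were the calls most often lost, and ETF1 turned from -0.01 to a called rise with an offset for transcript length and after removal of the trend with GC content and length. After that removal, the differences of EIF3M and EIF4EBP2 changed sign. For all genes, upper quartile scaling gave 5229 higher and 3672 lower after siPOLR3A, and total counts gave 3889 higher and 1919 lower with ML60218, beside 4222 and 4500, and 2800 and 3229. Same-numbered libraries did not deviate together (correlations of -0.029, 0.044 and -0.11 in the siRNA experiment and -0.024, 0.058 and -0.046 in the other), and fits with a replicate block called 36, 21 and 32 factors. EEF2K is limited by its spread between libraries (and was called without ML60218 replicate 3), EIF3I and EEF1D by the transcripts that could be matched, and all values by 3 libraries per group.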

Other observations

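The 2 control groups differed in several factors, which matters for reading levels across the experiments. PDCD4 was at 160 ± 7.85 TPM in siControl and 111 ± 4.55 TPM in DMSO, EIF4A2 at 468 ± 17.5 and 297 ± 3.30 TPM, and CDC123 at 143 ± 6.24 and 185 ± 2.57 TPM. EIF4A1 differed little, at 852 ± 36.6 and 866 ± 28.6 TPM. These groups differ in transfection, in time and in vehicle, and the comparison was not tested.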
